A study of Mus musculus with 20 samples.

Results

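The genes described here are the protein-coding genes of the normalized gene count table whose genomic span, end minus start plus 1 in the GENCODE M21 annotation of the mouse genome (GRCm38), was at least 300000 bases. Of 14456 genes listed in the table, 11583 were protein-coding and 204 of these met the rule, against 567 annotated protein-coding genes of that span in the whole genome. Among the rows of the table, the rule used only the annotation and no measured value. The table itself lists no gene with a median under 11 reads, so membership also depends on expression in these libraries. All 204 genes had a mean of at least 10 normalized counts in the glucose experiment and were tested there, and 202 were tested in the exosome experiment, where Rad51b and Thrb fell under that mean. The question asked of them was the direction in which their RNA changed under each treatment, set beside 11379 shorter protein-coding genes of similar mean level.

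Total RNA was sequenced from bone marrow-derived macrophages (BMDM), which are macrophages grown in culture from marrow progenitors with the growth factor M-CSF, from wild-type C57BL/6 mice aged 8 weeks. In the glucose experiment, 4 BMDM cultures stood in medium with 25 mM glucose for 24 h (high glucose) and 4 in 5.5 mM glucose with 19.5 mM mannitol, an osmotic control (normal glucose). In the exosome experiment, naive BMDM received for 24 h PBS (n = 4), exosomes released by BMDM in normal glucose (BMDM-NG-exo, n = 4) or exosomes released by BMDM in high glucose (BMDM-HG-exo, n = 4), the vesicles at 2000000000 particles per ml. The 20 libraries held 34016445 to 56310712 reads recovered from the table, and the long genes held 1.11% to 1.31% of them. All 8 macrophage markers checked, Csf1r and Adgre1 among them, were listed, while none of the T and B lymphocyte, dendritic cell, mast cell or erythroid markers were. Of the other marker lists, 3 of 6 neutrophil, 2 of 5 stromal, 1 of 3 endothelial and 2 of 3 osteoclast genes were listed, with summed levels of 493 normalized counts or less in every library, against 628420 or more for the macrophage markers. In such bulk RNA, fewer cells of a type and less RNA per cell cannot be told apart.

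Most of a very long gene is intron. RNA polymerase II has to travel the whole span before one messenger RNA is finished, so the output of these genes leans on sustained elongation, on topoisomerases that relieve the twist ahead of and behind the polymerase, and on RNA-binding proteins that keep the transcript from ending early. Genes of this kind are best known from neurons, but macrophages express a sizeable set, among them regulators of the actin cytoskeleton, protein kinase C isoforms, giant scaffold proteins and genes that lie at common fragile sites, which are stretches prone to breakage when replication is slowed.

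In span, the 204 genes ran from 300256 bases (Kcnq3, a potassium channel subunit) to 1997658 bases (Macrod2, a hydrolase that removes ADP-ribose from proteins), with a median of 399986. Of them, 59 spanned 500 kb or more. Just outside the limit lay AW554918 at 298323 bases, Akap13 at 299076 and Jazf1 at 299835, and just inside it Kcnq3, Pam at 300533 and Stk3 at 303426. Among the widest were Macrod2, Fhit (1611944 bases, a dinucleotide hydrolase), Pde4d (1503514, a cyclic AMP phosphodiesterase) and Magi2 (1477757, a junction scaffold). Apart from span, the long genes had a median merged exon length of 10300 bases and 24 merged exons, against 4457 bases and 10 exons in the shorter genes, so that exons made up a median 2.20% of the span against 19.9%. Their longest exon-free stretch had a median of 117276 bases against 6349. Another gene of the count table overlapped 50 of the 204 on the same strand (24.5%, against 9.59% of the shorter genes), and for these genes the assignment of reads is uncertain. Overlaps with annotated genes absent from that table were not counted. Per kb of merged exons, the median level over all libraries was 89.3 normalized counts against 205 in the shorter genes. The highest levels on that per kb scale belonged to Dock2 (2767), an activator of Rac in leukocytes, Macf1 (2472), which links actin to microtubules, Pid1 (1291), Prkcb (1226), a protein kinase C isoform, and Rere (1212), a transcriptional corepressor.

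The start regions of the called genes with the largest change in each direction under high glucose, and of the only gene called in BMDM-HG-exo against the combined controls, were taken from RefSeq (GRCm38.p6). They run from 250 bases before to 50 after an annotated start. Which start the BMDM used was not tested, and the GENCODE M21 span of Nav2 given below begins before both of its regions shown here. Slc7a11 lay at chr3:50443564-50443863 on the minus strand, Prkca at chr11:108343839-108344138 on the minus strand, and Nav2 had start regions at chr7:48958823-48959122 and chr7:49245939-49246238 on the plus strand. Capitals mark CpG dinucleotides.
Slc7a11: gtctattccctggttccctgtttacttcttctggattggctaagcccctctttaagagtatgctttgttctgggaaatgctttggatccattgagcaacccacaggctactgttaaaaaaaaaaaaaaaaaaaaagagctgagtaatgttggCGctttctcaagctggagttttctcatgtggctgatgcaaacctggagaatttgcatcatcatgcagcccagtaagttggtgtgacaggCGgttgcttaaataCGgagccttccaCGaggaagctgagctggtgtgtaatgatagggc
Prkca: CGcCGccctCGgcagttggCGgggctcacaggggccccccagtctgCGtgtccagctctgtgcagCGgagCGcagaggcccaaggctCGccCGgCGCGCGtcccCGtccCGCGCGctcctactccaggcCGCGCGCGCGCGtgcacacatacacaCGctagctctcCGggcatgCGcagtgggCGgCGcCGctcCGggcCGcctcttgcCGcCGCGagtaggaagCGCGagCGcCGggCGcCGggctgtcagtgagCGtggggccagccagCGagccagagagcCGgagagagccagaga
Nav2, first start: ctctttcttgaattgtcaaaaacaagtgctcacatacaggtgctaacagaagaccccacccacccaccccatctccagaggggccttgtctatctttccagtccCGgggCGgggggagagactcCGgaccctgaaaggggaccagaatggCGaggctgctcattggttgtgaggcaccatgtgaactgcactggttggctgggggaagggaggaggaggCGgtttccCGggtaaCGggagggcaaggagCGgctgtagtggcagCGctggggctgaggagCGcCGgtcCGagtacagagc
Nav2, second start: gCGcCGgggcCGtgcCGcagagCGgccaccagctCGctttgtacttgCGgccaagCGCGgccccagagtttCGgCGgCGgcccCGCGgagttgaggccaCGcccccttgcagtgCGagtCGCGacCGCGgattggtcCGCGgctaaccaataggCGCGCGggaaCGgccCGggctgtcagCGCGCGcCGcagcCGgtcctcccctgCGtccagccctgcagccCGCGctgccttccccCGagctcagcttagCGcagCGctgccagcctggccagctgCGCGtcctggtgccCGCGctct
The Slc7a11 region held 4 CpG and 44.7% G or C, the Prkca region 42 and 75.3%, and the Nav2 regions 12 and 60.7% for the first and 42 and 74.7% for the second. Of the 204 genes, 161 had such a region in the RefSeq table, and 37.9% of them had more than 1 start region, against 20.2% of shorter genes. Taking for each gene the region with the most CpG, the median was 24 CpG against 22 for shorter genes. That choice favors genes with more start regions, so the 2 medians are not a like comparison. Slc7a11 is long only by one annotation, since its RefSeq span is 134152 bases against 551089 in GENCODE M21. Of 200 genes matched to a RefSeq span, 10 were under 300000 bases there.

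Under high glucose, the RNA of long genes shifted downward. Of 204 genes, 47 were called at an adjusted p under 0.05 (limma on log2 values, Benjamini-Hochberg adjusted over all genes tested), or 23% against 13.3% of all genes tested and 15.5% of shorter protein-coding genes. Of these, 32 fell (15.7%, against 5.53% of all genes and 6.14% of shorter ones) and 15 rose (7.35%, against 7.74% and 9.33%). The groups did not overlap, high glucose being lower, in 33 long genes (16.2%, against 7.11% of all genes), and being higher in 18 (8.82%, against 9.18%). The median log2 fold change was -0.07 in the long genes and 0.01 in the shorter ones, and 78 of 204 values (38.2%) lay above 0, against 51.7% of shorter genes in the same class of mean level (10 equal classes). Taken against the median of shorter genes in the same class of mean level, the long genes had a median difference of -0.0634 on the log2 scale, which is small beside the changes of single genes. With shorter genes matched on merged exon length as well, the difference was -0.0370.

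The difference grew with span. From under 10 kb to 500 kb and over, the median log2 fold changes of 6 span classes were 0.03, 0.01, -0.00, -0.02, -0.05 and -0.12. Relative to shorter genes of the same mean level, the 145 genes of 300 to 500 kb lay at -0.0431 and the 59 genes of 500 kb and over at -0.127, of which 15 were above 0, 2 were called higher and 12 lower. By level, the 104 genes in the lower 5 classes of mean level lay at -0.125 and the 100 genes in the upper 5 classes at -0.0420. The lowest class stood apart, with 32 long genes at 0.0440 above the shorter ones, and in the highest class the 24 long genes lay at -0.00316. Across the 204 genes, the log2 fold change had a Pearson correlation of -0.217 and a Spearman correlation of -0.185 with log10 span, and of 0.236 and 0.330 with log2 mean. These genes come from the same 8 libraries, and low counts widen the spread.

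**Figure D1:**
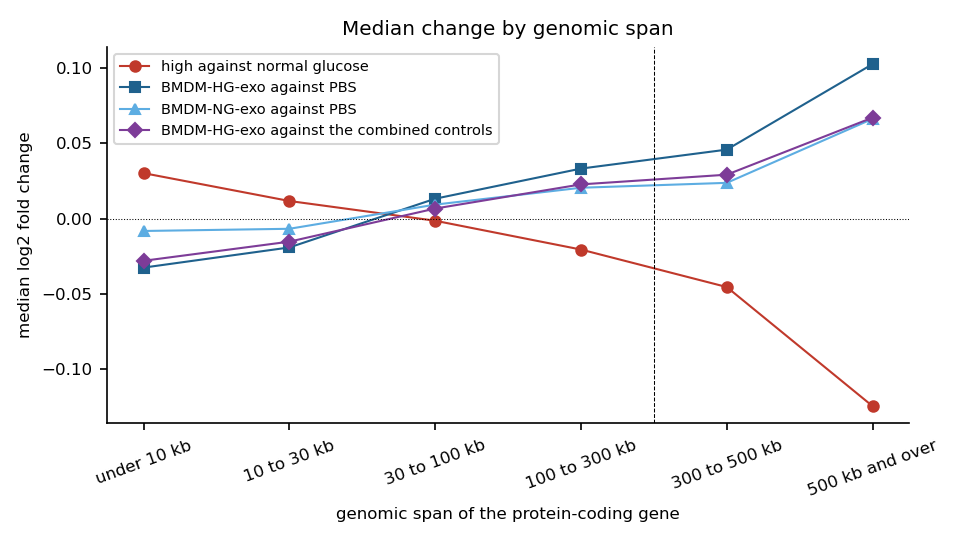
Median log2 fold change of protein-coding genes in 6 classes of genomic span, for high against normal glucose and 3 exosome comparisons, with a dashed line at 300 kb. In high against normal glucose the medians went from 0.03 in the class under 10 kb to -0.12 in the class of 500 kb and over, and in BMDM-HG-exo against PBS from -0.03 to 0.10.

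Slc7a11 (ENSMUSG00000027737, chr3:49892526-50443614), the transporter that imports cystine in exchange for glutamate and so feeds glutathione synthesis, rose most. Its level was 52.9, 103, 73.5 and 54.5 normalized counts in the normal glucose libraries, against 136, 197, 181 and 236 in high glucose. Every high glucose library was above every normal glucose library, with a log2 fold change of 1.41 ± 0.22 (SE; limma adjusted p = 1.2e-05; exact permutation p = 0.0286, the smallest that 4 against 4 libraries allow).

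Plcb4, Itpr1 and Prkcb rose as well. Plcb4, a phospholipase C that makes inositol trisphosphate and diacylglycerol, stood at 469.7, 409.7, 397 and 497 in normal glucose, against 547, 637, 654 and 725 in high glucose, again without overlap (log2 fold change 0.53 ± 0.10, limma adjusted p = 0.000218). Itpr1, the receptor that inositol trisphosphate opens to release calcium, went from 2786, 2472, 2429 and 2517 to 3204, 3247, 3162 and 3279 (0.34 ± 0.05, limma adjusted p = 3.5e-06). Prkcb, a kinase that diacylglycerol and calcium activate, went from 8362, 8828, 8146 and 8594 to 10016, 10541, 10565 and 10747 (0.30 ± 0.04, limma adjusted p = 1.68e-07). In all 3 the highest normal glucose library lay under the lowest high glucose library. Prkcb is overlapped on its strand by 6 other annotated genes. The remaining risers changed by less than 1.5-fold and include St18, a zinc finger factor (0.38 ± 0.07), Cux1, a homeobox repressor (0.27), Cask, a membrane scaffold (0.23), Arhgap26 (0.23), Dock4 (0.20) and Fmn1 (0.19), which act on small GTPases or actin. All 15 risers separated the groups without overlap, which a call on the same libraries favors, and 2 of them spanned 500 kb or more.

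Prkca, the alpha isoform of protein kinase C, fell most among the named genes. It stood at 71.5, 129, 93.0 and 59.5 normalized counts in normal glucose, against 40.2, 63.5, 32.6 and 45.7 in high glucose. These groups touched, since the high glucose library at 63.5 was above the normal glucose library at 59.5, and the log2 fold change was -0.92 ± 0.28 (limma adjusted p = 0.0234, exact permutation p = 0.0571). The Prkca call was lost without high glucose 1, high glucose 4, normal glucose 3 or normal glucose 5, and leaving out any 1 library gave a limma adjusted p of 0.0134 to 0.122. Prkca and Prkcb, isoforms of one kinase family, were thus called in opposite directions.

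Fggy, a carbohydrate kinase, went from 699, 606, 627 and 698 to 417, 438, 495 and 393 (-0.59 ± 0.09, limma adjusted p = 1.86e-05). Nfia, a transcription factor of the nuclear factor I family, went from 617, 652, 646 and 536 to 422, 441, 444 and 467 (-0.46 ± 0.09, limma adjusted p = 0.000518). Neither of these genes had overlapping groups. Fat3, a giant cadherin, went from 671, 622, 693 and 586 to 509, 471, 418 and 491 (-0.45 ± 0.09, limma adjusted p = 0.00079), and Arhgap6, a GTPase-activating protein, from 1339.6, 1487, 1298 and 1314 to 1118, 1037, 925 and 1019.6 (-0.41 ± 0.07, limma adjusted p = 3.92e-05). Both were lower in every high glucose library. Pola1, the catalytic subunit of the polymerase that starts DNA strands, fell by 0.35 on the log2 scale without overlap (limma adjusted p = 0.00905), and this Pola1 call was lost without normal glucose 3 (adjusted p = 0.0547, with 0.00219 to 0.261 over all alternatives). Pde1c, a phosphodiesterase (-0.57 ± 0.18), Ttc28 (-0.46 ± 0.14) and Ctnnd2, a catenin (-0.36 ± 0.12), had limma adjusted p of 0.0309, 0.0235 and 0.0352 and overlapping groups (exact permutation p = 0.0571 each). Leaving out 1 library took the adjusted p of Pde1c as high as 0.114 and that of Ttc28 to 0.101, each call being lost for 4 of the 8 libraries, and that of Ctnnd2 to 0.129, its call being lost for 6 of 8. A further 22 called genes fell by less, among them Lpp, a focal adhesion protein (-0.30, limma adjusted p = 8.59e-06), Slc9a9, an endosomal sodium and proton exchanger (-0.29, adjusted p = 6.94e-05), and Dock1, an activator of Rac (-0.27, adjusted p = 2.25e-05). In all, 26 of the 32 fallers separated the groups without overlap, which a call on the same libraries favors here too, and 12 spanned 500 kb or more.

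**Figure D2:**
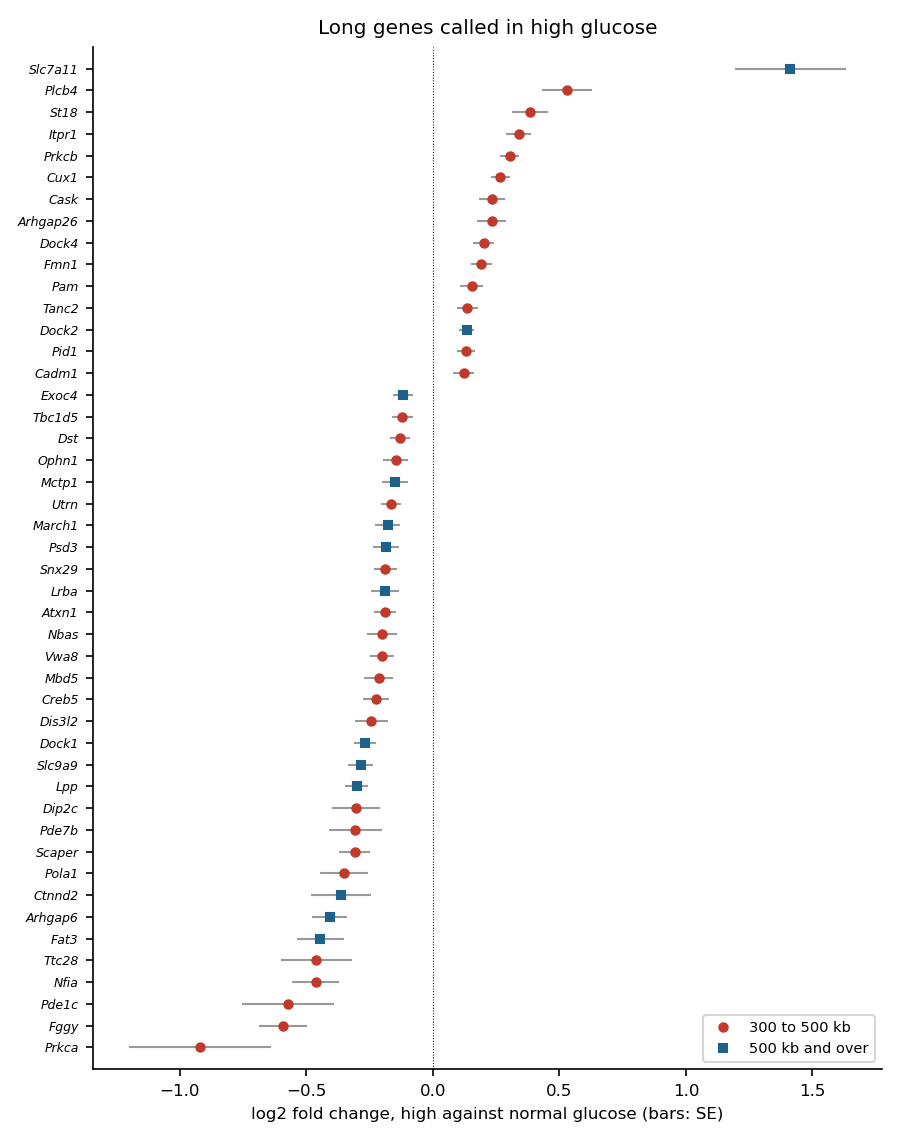
Log2 fold change with SE of 46 of the 47 long genes called in high against normal glucose (4 libraries each), ordered by size, with circles for spans of 300 to 500 kb and squares for 500 kb and over. The values run from -0.92 (Prkca) to 1.41 (Slc7a11), with 31 drawn genes below 0 and 15 above.

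By role, the lists of long genes described next were drawn up by hand with earlier results of these data known, do not take in every long gene of a role and are given as counts. Beside each glucose count stand the shares over all long genes, of which 7.35% rose and 15.7% fell. Of all genes tested, 7.74% rose and 5.53% fell. Of 13 listed genes of membrane traffic and lysosome, 6 fell and none rose, where 15.7% of all long genes and 5.53% of all genes fell, and 11 of 13 values lay below 0 with a median log2 fold change of -0.12. The 6 were Scaper, an endoplasmic reticulum protein (-0.31, limma adjusted p = 0.000393), Snx29, a sorting nexin (-0.19, adjusted p = 0.00302), Lrba, a regulator of vesicle return to the surface (-0.19, adjusted p = 0.0190), Exoc4, a subunit of the exocyst (-0.12, adjusted p = 0.0440), Mctp1, a calcium-binding membrane protein (-0.15, adjusted p = 0.0492), and Tbc1d5, which acts with the retromer. Of 12 listed regulators of small GTPases, 3 rose (Dock2, Dock4, Arhgap26), 2 fell (Dock1, Arhgap6) and 7 were not called, with a median of 0.00. The related Rac activators Dock1 and Dock2 were called in opposite directions. Dock1 went from 4571, 4758, 4341 and 4504 to 3753, 3846, 3854 and 3639, and Dock2 from 31638, 30292, 30887 and 30528 to 34206, 33317, 33214 and 34483, neither with overlap. Of 19 listed cytoskeletal, adhesion and scaffold genes, Fmn1 and Cadm1 rose, Ctnnd2, Lpp, Utrn and Dst fell, and the median was -0.14. That list leaves out called genes such as the scaffold Cask, which rose, and the cadherin Fat3, which fell.

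Of 25 listed genes of kinases, phosphatases and second messengers, Itpr1 and Plcb4 rose, Prkca, Pde1c and Pde7b fell and 20 were not called (median -0.11), and Prkcb, which rose, is not on that list. Of 23 listed transcription and chromatin regulators, Nfia and Atxn1 fell and the other 21 were not called (median -0.09). The list leaves out the regulators St18 and Cux1, which rose, and Creb5 and Mbd5, which fell. Of 21 genes listed with metabolism, transport, mitochondria and glycosylation, Slc9a9, Ttc28 and Dip2c fell and the other 18 were not called (median -0.07). The place of Ttc28 on that list was not tested. That list leaves out Slc7a11, which rose, and Fggy, which fell. Among 13 genes at common fragile sites or their mouse counterparts, 11 values lay below 0 and 2 genes fell, Exoc4 among them (median -0.12). Of the widest genes, Fhit had a log2 fold change of -0.78 ± 0.47 at a mean of 18.2 normalized counts (limma adjusted p = 0.304), Pde4d of -0.60 ± 0.23 (adjusted p = 0.0737), Magi2 of -0.14 ± 0.22 and Macrod2 of -0.00 ± 0.33, and none of these 4 was called. At these levels, and with SEs of this size, such differences were not detectable.

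In the exosome experiment the long genes shifted the other way. In BMDM-HG-exo against the PBS and BMDM-NG-exo libraries combined (n = 8), 137 of 202 long genes (67.8%) had a log2 fold change above 0, against 47.3% of shorter genes in the same class of mean level, and the median difference from those genes was 0.0456. It was 0.0774 for the 58 tested genes of 500 kb and over and 0.0362 for the 144 of 300 to 500 kb. The groups did not overlap, BMDM-HG-exo being higher, in 5 long genes (2.48%, against 0.576% of all genes) and in none with BMDM-HG-exo lower (against 0.597%). A call also required a log2 fold change of at least 0.15 in size here, and 1 long gene met both limits (0.495%, against 0.201% of all genes). It was higher, as were 0.0694% of all genes.

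That gene was Nav2 (ENSMUSG00000052512, chr7:48908716-49610090), a microtubule-associated protein first known from neurite growth. It stood at 11326, 10200.3, 10662 and 10611 normalized counts in the BMDM-HG-exo libraries, and at a lowest of 8727, a median of 9140.2 and a highest of 10177 in the 8 controls. All 4 BMDM-HG-exo libraries were above all controls (log2 fold change 0.21 ± 0.04, limma adjusted p = 0.0145, exact permutation p = 0.00202). The annotated genes Gm2788, Gm38059 and Gm44913 overlap Nav2 on the same strand. The Nav2 call was lost without BMDM-HG-exo 1 (adjusted p = 0.222) or BMDM-HG-exo 3 (adjusted p = 0.0707), and the adjusted p over all alternatives was 0.000458 to 0.349. The next genes by p were Plcb4 (0.45 ± 0.10, limma adjusted p = 0.0553) and Zbtb20, a repressor of the BTB zinc finger family (0.23, adjusted p = 0.0638), on the upper side, and Pde4b, a cyclic AMP phosphodiesterase (-0.38 ± 0.10, adjusted p = 0.0745), March1, a ubiquitin ligase of antigen-presenting cells (-0.14, adjusted p = 0.227), and Atrnl1 (-0.16, adjusted p = 0.256) on the lower. None of these 5 was called, but with the date in the sample labels as a block Zbtb20 was (limma adjusted p = 0.0195).

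Against PBS alone, 18 of 202 long genes were called (8.91%, against 4.84% of all genes and 5.59% of shorter ones). Of these, 14 rose (6.93%, against 1.76% and 1.81%) and 4 fell (1.98%, against 3.08% and 3.77%). The groups did not overlap in 29 long genes with BMDM-HG-exo higher (14.4%, against 4.41% of all genes) and in 5 with it lower (2.48%, against 5.59%). The median difference from shorter genes of the same mean level was 0.0665, and 0.104 for the 58 genes of 500 kb and over, which held 8 of the 14 risers and 3 of the 4 fallers. By span class, the medians were -0.03, -0.02, 0.01, 0.03, 0.05 and 0.10.

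Plcb4 rose most, from 415, 310.2, 385 and 416 with PBS to 562, 589, 563 and 511 with BMDM-HG-exo, with 499.8, 443, 439 and 365 in BMDM-NG-exo. All BMDM-HG-exo libraries were above all PBS and BMDM-NG-exo libraries, and the log2 fold change against PBS was 0.55 ± 0.11 (limma adjusted p = 0.00115). Lrmda, a melanocyte differentiation gene with leucine-rich repeats, stood at 276, 338, 237 and 331 with PBS and at 425, 401, 485 and 356 with BMDM-HG-exo (0.50 ± 0.13, limma adjusted p = 0.0123). Smyd3, a lysine methyltransferase at a fragile site, stood at 476, 462, 445 and 536 with PBS and at 650.1, 649.6, 569 and 631 with BMDM-HG-exo (0.38 ± 0.10, limma adjusted p = 0.00882). Neither gene had overlapping groups. Zbtb20 went from 3803, 4350.5, 4412 and 4542 to 4872, 4839.7, 5473 and 5388, without overlap (0.27 ± 0.06, limma adjusted p = 0.00242), and Nav2 from 9164, 9116, 8727 and 8978 to the values above (0.25, adjusted p = 2.56e-05). Mctp1 (0.25), Lrba (0.25), Snx29 (0.23) and Fmn1 (0.19) also rose. A further 4 genes, Zfp407, Syne1, Macf1 and Apbb2, rose by 0.15 to 0.17 on the log2 scale.

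Pde4b fell most, from 904, 948, 739 and 799.9 with PBS to 552, 563, 616 and 612 with BMDM-HG-exo. Every BMDM-HG-exo library was below every PBS library (log2 fold change -0.53 ± 0.09, limma adjusted p = 0.00017). Plxdc2, a membrane protein with a plexin domain (-0.24, adjusted p = 0.00168), Frmd4a, a scaffold of cell polarity (-0.21, adjusted p = 0.00321), and Atrnl1 (-0.21, adjusted p = 0.0433) fell too, each without overlap. With the date as a block, 2 more genes passed, Arhgap24 higher (adjusted p = 0.0416) and Itpr1 lower (adjusted p = 0.0436). Leaving out 1 library ended the call of Atrnl1 for all 8 of the groups compared (up to 0.110), of Lrba for PBS 1 and BMDM-HG-exo 2 (up to 0.0540), of Lrmda for PBS 3 and BMDM-HG-exo 3 (up to 0.0811), of Mctp1 for BMDM-HG-exo 3 (0.0520) and of Snx29 for PBS 1 (0.0651).

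**Figure D3:**
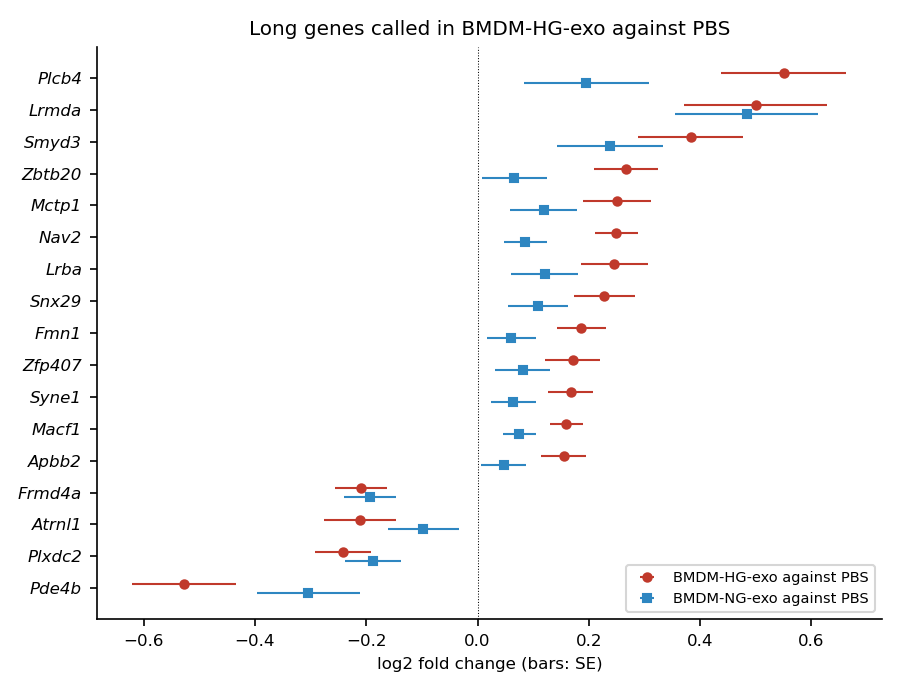
Log2 fold change with SE of 17 of the 18 long genes called in BMDM-HG-exo against PBS (circles), with BMDM-NG-exo against the same 4 PBS libraries beside it (squares). The circles run from -0.53 (Pde4b) to 0.55 (Plcb4), with 13 drawn genes above 0 and 4 below, and the squares of Plcb4 and Pde4b lie at 0.19 and -0.30.

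BMDM-HG-exo against BMDM-NG-exo, the comparison of the 2 vesicle preparations, gave no called long gene by limma (0 of 202, against 0.0139% of all genes), and edgeR on the recovered reads also gave 0. At an unadjusted p under 0.05 there were 19 (9.41%, against 6.54% of all genes), and DESeq2 called 2. The groups did not overlap in 8 long genes with BMDM-HG-exo higher (3.96%, against 1.86% of all genes) and in 5 with it lower (2.48%, against 2.01%). With the date as a block, limma called Nav2 (0.16 ± 0.04, adjusted p = 0.0360) and Zbtb20 (0.20 ± 0.04, adjusted p = 0.0334). The median difference from shorter genes was 0.0312, with 122 of 202 values above 0.

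BMDM-NG-exo against PBS, which shares the PBS libraries with the comparison above and is given beside it only, had 5 called long genes (2.48%, against 3% of all genes), 2 higher (0.99%, against 0.888%) and 3 lower (1.49%, against 2.11%). Lrmda, at 367, 463, 452 and 366 with BMDM-NG-exo, rose by 0.48 (limma adjusted p = 0.0240) and Scaper by 0.23 (adjusted p = 0.0346). Itpr1 (-0.17, adjusted p = 0.0482), Plxdc2 (-0.19, adjusted p = 0.0285) and Frmd4a (-0.19, adjusted p = 0.0113) fell. The groups did not overlap in 10 long genes with BMDM-NG-exo higher (4.95%, against 3.64% of all genes) and in 9 with it lower (4.46%, against 4.63%), the 5 called ones among them. Leaving out BMDM-NG-exo 3 left no call, and the Itpr1 call was lost without any of 10 of the 12 libraries, at a limma adjusted p of up to 0.229. With the date as a block, Pde4b (-0.30, adjusted p = 0.0458) and Rora, a nuclear receptor (0.21, adjusted p = 0.0407), passed as well. The median difference from shorter genes was 0.0404.

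By role, in BMDM-HG-exo against PBS, all 12 tested fragile site genes had values above 0, against 67.8% of all long genes and 50.9% of all genes tested, with a median log2 fold change of 0.21. Of these, 2 rose, Smyd3 among them, where 6.93% of long genes and 1.76% of all genes did. In BMDM-NG-exo against the same PBS libraries, 11 of these 12 genes lay above 0 (median 0.12). In BMDM-HG-exo against BMDM-NG-exo, 10 of the 12 did (median 0.10). Beside the fallers of the lists below, 1.98% of long genes and 3.08% of all genes fell. Of 13 listed traffic genes, Snx29, Mctp1 and Lrba rose and none fell. Of the 13 values, 11 lay above 0 with BMDM-HG-exo and 11 with BMDM-NG-exo, each against PBS (medians 0.091 and 0.095). In BMDM-HG-exo against BMDM-NG-exo, 8 did (median 0.018). Of 19 listed cytoskeletal and scaffold genes, Nav2, Macf1 and Fmn1 rose and Frmd4a fell. Of the 25 genes listed with kinases, phosphatases and second messengers, Plcb4 and Smyd3 rose, Pde4b fell and 22 were not called. Smyd3, a lysine methyltransferase, stands on that list and is counted with the fragile site genes too. Zbtb20 was the only one of 22 listed transcription regulators called, and none of the 12 listed regulators of small GTPases was. The cytoskeletal list leaves out Syne1 and the transcription list leaves out Zfp407, both of which rose. In all, 119 of the 204 genes were in at least 1 role list and 85 in none.

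A per-library index, the median over long genes of the deviation from the gene's mean log2 value in that experiment, less the same in shorter genes of similar level, followed the groups. It lay at 0.0163 to 0.0388 in the normal glucose libraries (mean 0.0291 ± 0.0104 SD, n = 4) and at -0.0470 to -0.0202 in high glucose (-0.0315 ± 0.0114), with no overlap. In the exosome experiment it lay at -0.0540 to 0.00355 with PBS (-0.0268 ± 0.0261), at -0.0195 to 0.0242 with BMDM-NG-exo (-0.000333 ± 0.0195) and at 0.0211 to 0.0576 with BMDM-HG-exo (0.0382 ± 0.0176). PBS and BMDM-HG-exo did not overlap, while BMDM-NG-exo overlapped both. On each of the 4 dates in the labels the order was PBS, BMDM-NG-exo, BMDM-HG-exo, and the step from PBS was 0.00287 to 0.0479 to BMDM-NG-exo and 0.0449 to 0.0751 to BMDM-HG-exo.

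**Figure D4:**
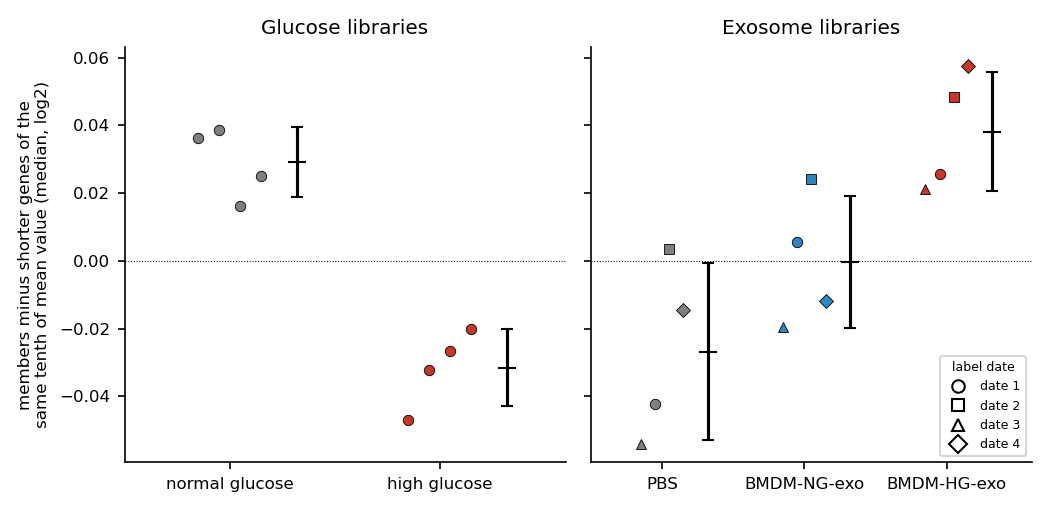
Index of long against shorter protein-coding genes in each of the 20 libraries, as a log2 difference, with the mean and SD of each group beside its points and symbols for the 4 label dates. High glucose libraries lie at -0.0470 to -0.0202 and normal glucose libraries at 0.0163 to 0.0388, and BMDM-HG-exo libraries at 0.0211 to 0.0576 above all PBS libraries.

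Other measures differed between the same groups, though not always in step with the index. Reads of genes annotated as sense intronic made up 0.0240% to 0.0267% of reads in normal glucose, against 0.0221% to 0.0230% in high glucose, and 0.0171% to 0.0206% with PBS, 0.0166% to 0.0204% with BMDM-NG-exo and 0.0190% to 0.0216% with BMDM-HG-exo. On the 4 dates, this share was lower with BMDM-NG-exo than with PBS on 4, and higher with BMDM-HG-exo than with PBS on 3. The summed macrophage markers stood at 628420 to 702912 normalized counts in normal glucose, against 808014 to 878735 in high glucose, and at 794502 to 841224 with PBS, 717507 to 773976 with BMDM-NG-exo and 735061 to 759636 with BMDM-HG-exo. Lyz2 made up most of that sum, with means of 480718 in normal and 642842 in high glucose. Csf1r, Adgre1, Cd14 and Fcgr1 also had higher means in high glucose. The means of Cd68 (31887 to 28771), Mertk (6737 to 5113) and Itgam (7936 to 7529) went down. With BMDM-HG-exo, Cd68 and Mertk had higher means than with PBS and the other markers lower ones. The part of these measures in the shifts of the long genes was not tested. The shift in glucose was -0.0747 in the 154 long genes that no other gene of the count table overlapped on the same strand. It was -0.0592 in the 190 with a RefSeq span of at least 300 kb.

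The glucose and exosome experiments share no library, so their values for the same genes can be set side by side. Of 202 long genes, 89 (44.1%) lay below 0 in high against normal glucose and above 0 in BMDM-HG-exo against PBS, against 2845 of 11359 shorter genes (25.0%). In the separate comparisons, 78 of 204 long genes lay above 0 in glucose and 137 of 202 against PBS. The share of 44.1% follows largely from these 2 shifts, so it does not show that the same genes reversed. Called in both were 5 long genes (2.48%, against 2.76% of the shorter genes). Lrba, Mctp1 and Snx29, all of the membrane traffic list, fell in high glucose and rose with BMDM-HG-exo, whereas Plcb4 and Fmn1 rose in both. With replicate number as a block, the glucose calls of Lrba, Mctp1, Snx29 and Plcb4 were lost (limma adjusted p = 0.157, 0.0670, 0.167 and 0.0818). The exosome calls of Lrba, Mctp1 and Snx29 were each lost on leaving out single libraries, as given above. Lrba stood at 1924, 1965, 1792 and 1949 in normal glucose, against 1649, 1577, 1747 and 1717 in high glucose, and at 1441, 1599.7, 1535 and 1607 with PBS and 1893, 1951, 1678 and 1816 with BMDM-HG-exo. Snx29 stood at 5056, 4630.1, 4759.7 and 4482 in normal glucose, against 4362, 3984, 4077 and 4179.8 in high glucose, and at 3522, 4424, 4181 and 3915 with PBS and 4810.3, 4592, 4760.3 and 4565 with BMDM-HG-exo. In both genes the groups of each pair did not overlap. Itpr1, which rose in high glucose and fell in BMDM-NG-exo against PBS, and Scaper, which did the opposite, were called in both of those comparisons (0.99% of long genes, against 2.13% of shorter ones).

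**Figure D5:**
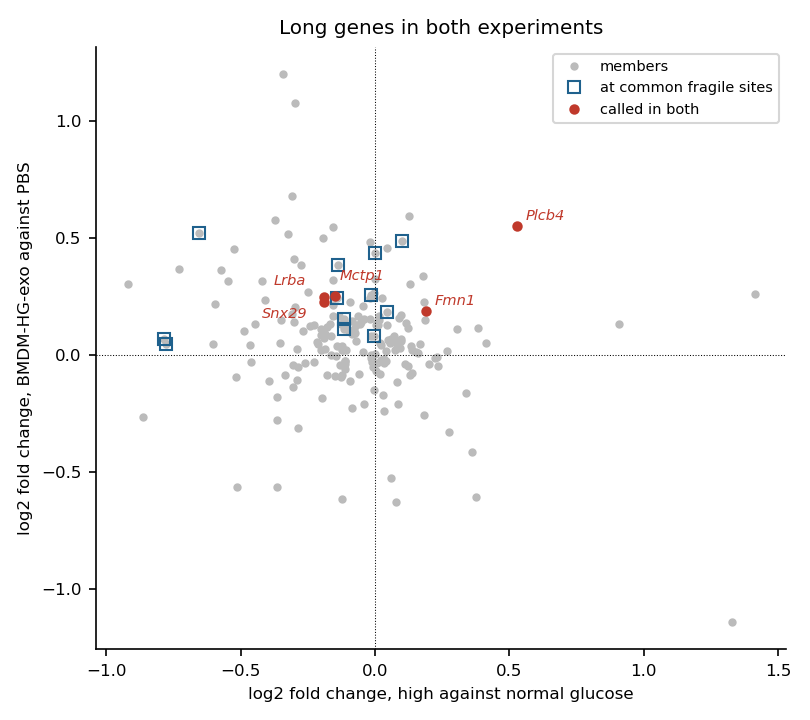
Log2 fold change of 202 long genes in high against normal glucose (horizontal) and in BMDM-HG-exo against PBS (vertical). The upper left part, below 0 in glucose and above 0 with exosomes, holds 89 genes, the 5 genes called in both comparisons are named, and open squares mark the fragile site genes.

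Which factors the long genes of BMDM depend on was not tested. A list of 40 factors linked to transcription, RNA processing or topoisomerases was drawn up in the same way as the role lists. Of these, 6 were called in high glucose (15%, against 13.3% of all genes), of which 3 rose, namely Ell2, an elongation factor (0.24 ± 0.06, limma adjusted p = 0.00242), Hexim1, an inhibitor of the elongation kinase P-TEFb (0.15, adjusted p = 0.0363), and Ccnt1, the cyclin of that kinase (0.14, adjusted p = 0.0372). As many fell, among them Polr2a, the largest subunit of RNA polymerase II (-0.14, adjusted p = 0.00673), and Aff4, a scaffold of the super elongation complex (-0.12, adjusted p = 0.0244). Their median log2 fold change was 0.02 against -0.00 for all genes tested. In BMDM-HG-exo against PBS, Snrnp70, a U1 snRNP protein, fell (-0.21, limma adjusted p = 0.00214) and no other factor was called (2.5%, against 4.84% of all genes). Aff4 lay higher there without overlap (0.13, limma adjusted p = 0.0382), opposite to glucose. It missed only the log2 limit of 0.15, which was not applied in glucose. The topoisomerases Top1 and Top2b, the kinase Cdk12 and the RNA-binding protein Sfpq were not called in any comparison.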

How the data were processed

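Per the labels, libraries were made from total RNA with a stranded pico-input kit that removes ribosomal cDNA. The authors' processing notes name cutadapt, STAR and featureCounts with GRCm38, and the deposited signal is gene counts divided by DESeq2 size factors, 1 column per library. The annotation release used for counting is not given in the sources used here, and GENCODE M21 supplied span and gene type here. Whole reads were recovered from the steps between values (100% whole within 0.01 of a read), and in PBS 4 and BMDM-HG-exo 1 1 read was worth about 1 normalized count. Total reads per library were 34016445 to 56310712, which limits precision for genes of few reads. None of the 30 pairs of libraries within a group agreed within sampling noise, and pairs across groups were not compared.

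Genes with a mean of at least 10 were fitted as log2(value + 1) with limma 3.58.1 (R 4.3.3, with an intensity trend), each experiment apart, and p-values were Benjamini-Hochberg adjusted over all genes tested. Fold changes on this scale understate those of low genes. A call needed an adjusted p under 0.05 and, in the exosome experiment, a log2 fold change of 0.15 or more in size. Exact permutation tests were two-sided and enumerated every split of the libraries. For levels, long genes were set against shorter protein-coding genes in the same 1 of 10 classes of mean value. Alternatives included edgeR 4.0.16 and DESeq2 1.42.0 on the recovered reads. The steps were tested on simulated data with 200 changed genes per experiment. Tables and figures were made in Python 3.11.15 (numpy 2.4.6, pandas 2.3.3, matplotlib 3.10.9).

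The genes, lists and tests were chosen with earlier results of these data known. Named were the called long genes of glucose with a mean of at least 50 (up to 10 by size in each direction), called genes of each exosome comparison, the 3 smallest p in each direction against the combined controls, the 5 widest, the 5 highest per kb, the 3 on each side of the span limit, up to 4 per role list and the called transcription factors of the list. Others are named only to complete a count, and a few items are not reported here. The labels give the exosome libraries a date, shared by 1 library of each group, and deviations of same-date libraries correlated at a mean of 0.0118 (-0.0187 to 0.0546, 12 pairs) against -0.00392 for the other 36 pairs. The labels do not say that libraries came from separate mice, so p-values measure the spread between these samples.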

Additional observations from a re-analysis of the deposited data

Results flagged for a closer look

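In 4 of the 84 groups of 4 libraries examined for the named long genes and the per-library index, 1 library stood apart from the other 3 by more than Dixon's 95% limit, which chance alone passes in about 1 of 20 groups. In normal glucose these were Ctnnd2 in library 6 (348 normalized counts, the others at 426 to 437), Pola1 in library 3 (667, the others at 542 to 559.8) and St18 in library 5 (848, the others at 1023 to 1052). In the PBS group it was Plxdc2 in library 3 (3775, the others at 3214 to 3271).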

How the results depend on the processing

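Of 910 values of named genes recomputed, 793 kept their side of the threshold, 106 lost it, 11 gained it and 0 reversed. For high glucose, 47 calls became 18 with replicate number as a block, where only numbers 1 and 6 are shared and same-numbered libraries correlated at 0.00844 (2 pairs, the others at -0.00121), and 16 of these were among the 47. Without an intensity trend the counts were 18 for glucose, 0 for the combined controls, 6 for BMDM-HG-exo against PBS and 1 for BMDM-NG-exo against PBS. A span of 200000 gave 111, 40 and 17 calls in glucose, BMDM-HG-exo against PBS and BMDM-NG-exo against PBS, and 500000 gave 14, 11 and 2. Leaving out 1 library gave 34 to 46, 14 to 19 and 0 to 5 in these comparisons, 0 to 6 for the combined controls and 0 to 0 against BMDM-NG-exo. BMDM-NG-exo against PBS had 0 calls without BMDM-NG-exo 3, 2 without PBS 1, PBS 2 or BMDM-NG-exo 2, and 3 without PBS 4 or BMDM-NG-exo 4. For the combined controls, the 1 call became 0 without BMDM-HG-exo 1 or 3, 3, 2 and 6 without BMDM-NG-exo 1, 2 and 3, 2 with a pseudocount of 5 or the date as a replicate block, 5 with DESeq2 and 0 without overlapping genes. Against BMDM-NG-exo, the block and DESeq2 each gave 2, and quantile scaling gave 3 for BMDM-NG-exo against PBS.

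The glucose shift of -0.0634 was -0.0756 to -0.0583 on leaving out 1 library, -0.0525 at 200 kb, -0.127 at 500 kb, -0.0747 without overlapping genes, -0.0468 matched on level per kb and -0.0370 matched also on exon length. The exosome shifts were 0.0398 to 0.0597 (combined controls) and 0.0558 to 0.0850 (PBS) on leaving out 1 library, and 0.0774 and 0.104 at 500 kb. The RefSeq span and the shift against PBS were added after seeing the data. In the exosome experiment, the date block changed no call of a long gene other than those in the report. Depth limits the lowest genes, such as Macrod2 and Fhit, with means of 30.6 and 18.2 normalized counts.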
